A study of Mus musculus with 19 samples.

Results

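Glycolysis and glycogen metabolism were followed in mouse gastrocnemius muscle through 34 genes that encode their enzymes and the proteins that switch those enzymes on and off. The genes were taken by symbol from a list of the pathway that was drawn up with earlier results of these data known, and all 34 were among the 13067 genes of the deposited RNA sequencing table. They were grouped by role into hexokinases with phosphoglucose isomerase, the phosphofructokinase step, lower glycolysis, lactate dehydrogenases, glycogen synthesis, glycogen breakdown and the glycogen-targeting subunits of protein phosphatase 1.

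Muscle of 3 groups was sequenced as polyA RNA. The 7 control libraries came from mice without a tumour. The 7 C26 vehicle libraries came from male Balb/c mice that carried a tumour grown from C26 cells, a mouse adenocarcinoma line placed under the skin of the right flank at an age of 2 months, and that received ethanol in saline into the abdominal cavity from day 4. The 5 C26 rolipram libraries came from mice with the same tumour that received rolipram, an inhibitor of the cyclic AMP-degrading phosphodiesterase 4 family, at 3 mg/kg from day 4. Injections, strain, sex and age are stated for the tumour-bearing mice and not separately for the controls, so the tumour cannot be told apart from these traits in a comparison with controls. The effect of rolipram without a tumour was not measured. Whether every sample is a different animal is not stated in the labels, and p-values then measure only the spread between these libraries.

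Glycolysis splits glucose or glucose phosphate into pyruvate, and the lactate dehydrogenases turn pyruvate into lactate and back. Fast muscle fibres, which make up most of the gastrocnemius, run it at high rates and store glucose as glycogen, a branched polymer that glycogen synthase builds on a glycogenin core and that glycogen phosphorylase takes apart. Adrenaline acts on this store through cyclic AMP and protein kinase A, which activates phosphorylase kinase and, through it, phosphorylase. Many steps exist as pairs of genes, one form abundant in adult muscle and the other in most other tissues.

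Levels are given as RPKM, which divides reads by gene length and by library size. Library sizes estimated from the spacing of low values were 17.06 to 46.84 M reads, and even the least abundant gene described here, Pgm2, rested on an estimated 42 to 194 reads per library. All 34 genes passed the filter on low values, which asked for 5 or more libraries at 1 RPKM or above, 33 of them with at least 1 RPKM in all 19 libraries and Pgm2 in 16. Differences are given on the scale log2(RPKM + 1) with their standard error (SE), tested with limma over all 11141 genes that passed the filter, and called where the Benjamini-Hochberg adjusted p over those genes was below 0.05. Markers of skeletal muscle were high in every library, Acta1 at 11783 RPKM or more and Ckm at 4795 or more. In C26 vehicle against control, Myh4, Myh2 and Actn3 were the 3 of 8 muscle markers called lower, and Myh4, the myosin heavy chain of the most glycolytic fibres, changed by -0.97. All 5 tested erythroid markers, 6 of 7 macrophage and 2 of 2 neutrophil markers were higher, where 43.3% of all tested genes were. Of 7 listed neutrophil markers only these 2 were tested. Of 6 fibroblast markers 4 were lower, where 23.8% of all tested genes were. Among 6 endothelial markers 2 were higher and 1 lower, among 5 nerve markers 1 and 1, and among 4 adipocyte markers 0 and 1. Summed erythroid RPKM was 90.6 to 246 in controls, 309.9 to 1012 in C26 vehicle and 202 to 550.5 in C26 rolipram, and summed macrophage RPKM was 15.2 to 43.7, 43.7 to 123 and 31.5 to 92.2. Low values in the table rest on a shared floor, so a value above 0 does not show that a marker was detected. Whether these markers bear on the results below was not tested, and fewer cells of a type cannot be told apart from less RNA per cell.

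With the tumour, most genes of lower glycolysis and of glycogen breakdown were lower, and most genes of glycogen synthesis were higher. In C26 vehicle against control, 16 of the 34 genes (47.1%) were called lower, where 23.8% of all tested genes were, and 9 (26.5%) were called higher, where 43.3% of all tested genes were. For 13 genes every C26 vehicle library lay below every control library, as it did for 12.2% of all genes, and for 3 genes every one lay above, as it did for 26.9%. The median change of the 34 genes was -0.08 and that of all tested genes was 0.15. This shift of all genes depended on scaling: it was 0.04 after median-of-ratios scaling and 0.02 after quantile normalisation, and the share of calls that were higher went from 64.6% as deposited to 54.0% and 51.6%. Single genes are described as deposited, so a change of 0.15 stands level with the median gene in either comparison with controls.

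With rolipram, part of lower glycolysis moved back up. In C26 rolipram against C26 vehicle, 11 of the 34 genes (32.4%) were called higher, where 9.78% of all tested genes were. None was called lower by limma, where 7.32% of all genes were, and Ugp2 was the 1 gene lower at an unadjusted p below 0.05. Gapdh was the 1 gene whose 5 rolipram libraries all lay above the 7 vehicle libraries, as 2.27% of all genes did, and no gene had all of them below, as 1.8% of all genes did. The median change was 0.25 for the 34 genes and -0.01 for all. When the fit held only these 2 groups, Pfkm, Aldoa, Gapdh and Pgk1 were called higher, 4 of the 34 genes, and the calls of Pfkfb1, Fbp2, Tpi1, Eno1, Eno3, Pkm and Ppp1r3a were lost at the same size of change. With the same change in both fits, only the estimate of spread and the adjustment of p differ. The main fit takes the spread of a gene from all 3 groups, controls included. The SE and adjusted p given below for rolipram against vehicle therefore draw on the spread among controls too. How much each part added to the loss was not tested.

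In C26 rolipram against control, 10 genes (29.4%) were lower, against 16.4% of all tested genes, and 9 (26.5%) were higher, against 38.5%. The libraries did not overlap for 11 genes below control, against 10.7% of all genes, and for 6 above, against 24.7%. The 3 comparisons share libraries: both comparisons with control use the same 7 controls, and C26 vehicle enters 2 of them. Their values are therefore set side by side here as separate descriptions. By call, Tpi1, Eno1 and Pkm were lower with the tumour, higher with rolipram than with vehicle and still lower than control. Pfkm, Pfkfb1, Pgk1 and Eno3 were likewise lower with the tumour and higher with rolipram than with vehicle but were not called different from control. Of these 4, against control in C26 rolipram, Pfkfb1 was called lower under both other scalings (-0.37 and -0.52), Pgk1 after quantile normalisation (-0.41) and Eno3 after median-of-ratios scaling (-0.72). Gapdh ended higher than control. Pgam2, Ldhb, Pgm1, Pygm, Phka1, Phkb and Phkg1 were lower than control in both tumour groups, and Gpi1, Gys1, Gbe1, Gyg and Ugp2 were higher than control in both, with no call between the tumour groups.

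**Figure D1:**
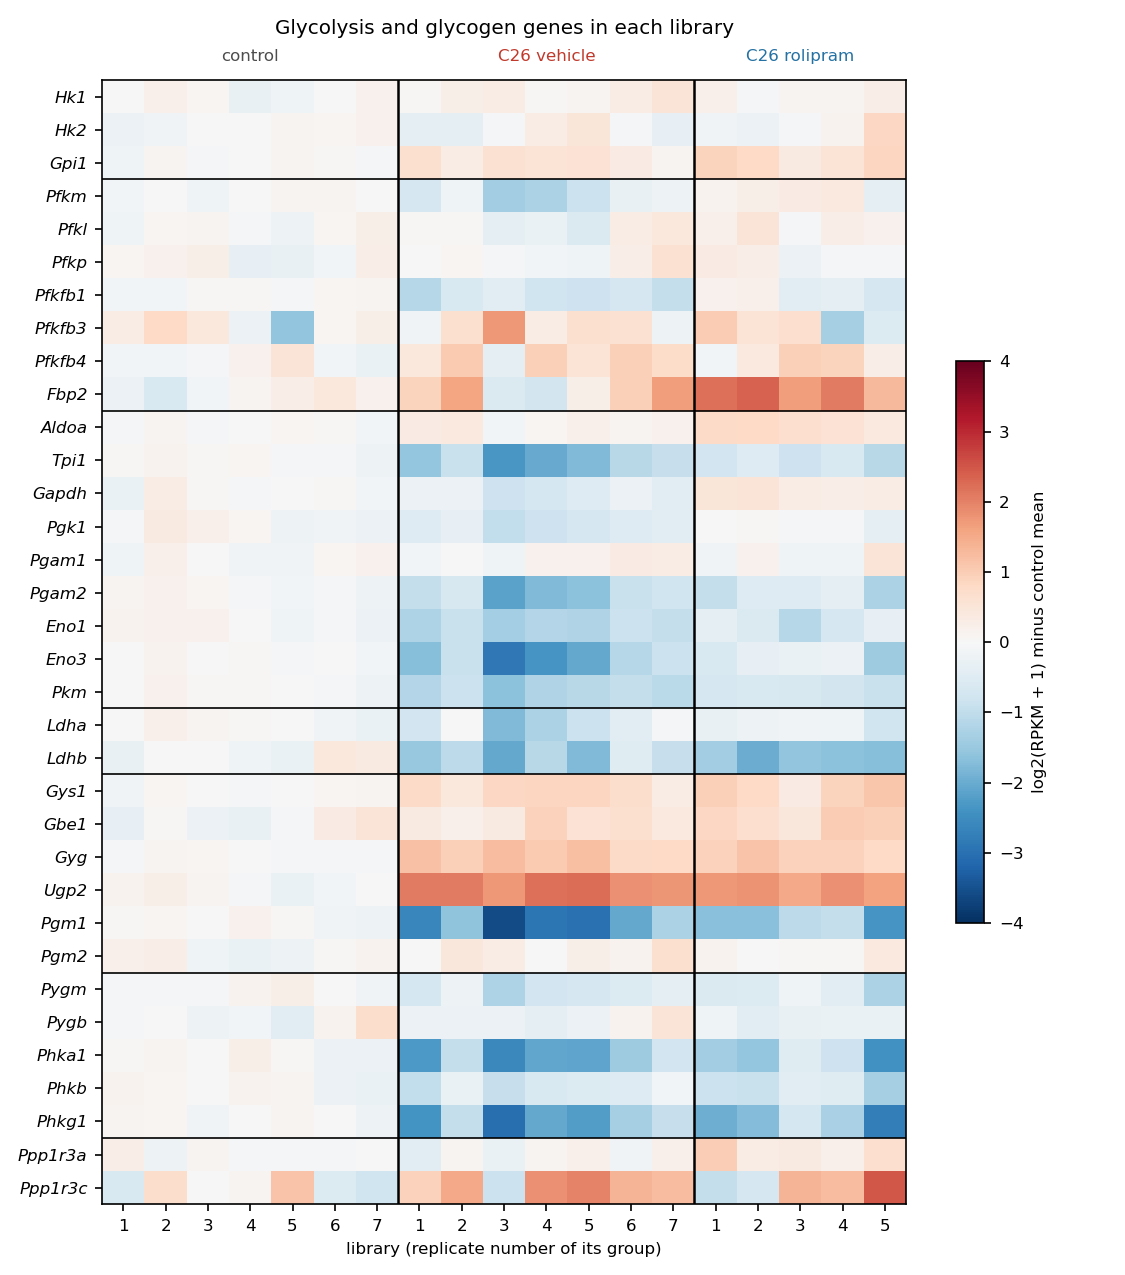
Each column is a library and each row a gene, grouped by role. Colour is the library's log2(RPKM + 1) minus the mean of the 7 controls. Tpi1, Eno3, Pgm1, Phka1 and Phkg1 are blue in all 7 C26 vehicle libraries, and Ugp2, Gyg and Gys1 are red in them. The rows of Aldoa and Fbp2 are on average redder in C26 rolipram than in C26 vehicle.

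The promoters of the genes at the extremes are shown first, since the series concerns cyclic AMP and the factor CREB1, which binds the cyclic AMP response element. The windows are the 250 bases before a RefSeq transcript start on GRCm38.p6. Shown are the 2 largest falls and the 2 largest rises with the tumour among genes whose libraries did not overlap, and the 1 window of these genes that holds the full element TGACGTCA. Where a gene has several starts, Ugp2 is shown at the first listed and Ldha at the start whose window holds the element. Capitals mark any match, on either strand, to TGACGTCA, its shorter form TGACG, the hypoxia response core ACGTG, the E-box CACGTG, the estrogen-related receptor motif AAGGTCA or the FOXO motif GTAAACA.
Pgm1, chr4:99929201-99929450, plus strand: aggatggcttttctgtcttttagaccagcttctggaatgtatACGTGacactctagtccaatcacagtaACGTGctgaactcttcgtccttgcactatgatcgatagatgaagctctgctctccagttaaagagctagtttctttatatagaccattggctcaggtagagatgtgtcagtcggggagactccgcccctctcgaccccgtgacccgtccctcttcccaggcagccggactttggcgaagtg
Phkg1, chr5:129879089-129879338, minus strand: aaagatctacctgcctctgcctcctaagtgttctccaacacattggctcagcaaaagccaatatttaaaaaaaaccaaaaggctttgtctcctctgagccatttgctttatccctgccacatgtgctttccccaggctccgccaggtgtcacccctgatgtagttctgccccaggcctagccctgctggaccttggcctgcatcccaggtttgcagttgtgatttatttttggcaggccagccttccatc
Ugp2, chr11:21371268-21371517, minus strand: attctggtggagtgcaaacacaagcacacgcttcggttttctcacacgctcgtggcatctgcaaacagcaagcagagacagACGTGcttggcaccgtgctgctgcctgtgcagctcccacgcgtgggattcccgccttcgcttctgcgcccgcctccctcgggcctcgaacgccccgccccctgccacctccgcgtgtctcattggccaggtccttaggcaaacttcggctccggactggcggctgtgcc
Gyg, chr3:20155117-20155366, minus strand: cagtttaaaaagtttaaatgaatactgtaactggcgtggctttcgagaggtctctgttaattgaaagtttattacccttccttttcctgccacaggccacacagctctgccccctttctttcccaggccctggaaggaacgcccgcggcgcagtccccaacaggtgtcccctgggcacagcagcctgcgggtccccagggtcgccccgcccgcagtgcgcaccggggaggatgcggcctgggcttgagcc
Ldha, chr7:46845554-46845803, plus strand: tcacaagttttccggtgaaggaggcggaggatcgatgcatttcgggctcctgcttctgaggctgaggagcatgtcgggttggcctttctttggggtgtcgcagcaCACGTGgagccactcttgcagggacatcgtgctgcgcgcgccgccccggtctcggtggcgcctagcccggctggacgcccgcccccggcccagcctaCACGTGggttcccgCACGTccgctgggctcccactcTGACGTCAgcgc

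Of the 49 windows of the 34 genes, 18 (36.7%) held ACGTG, against 16.6% of all 32851 promoter windows of the same length outside mouse chromosome 18. Those 18 windows belonged to 15 genes, 6 of them called lower with the tumour and 3 called higher. CACGTG, which contains ACGTG, was in 10.2% against 6.02%, in the windows of Fbp2, Ldha, Pfkfb3, Pfkm and Ppp1r3c. TGACG, which lies within TGACGTCA, was in 20.4% against 17.8%, and TGACGTCA itself in 2.04% against 1.55%, here in Ldha alone. AAGGTCA was in 4.08% of both sets, in the windows of Eno1 and Pfkfb1, and GTAAACA was in none of the 49 windows against 3.17% of all. In the windows printed above, Ldha has 10 matches within these motifs counted with their overlaps, Pgm1 has 2, Ugp2 has 1, and Phkg1 and Gyg have none of these letters.

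Entry into glycolysis changed little. Hk2, the main hexokinase of muscle, which traps glucose by phosphorylating it, was 60.9 to 82.1 RPKM in controls (median 72.9) and 55.1 to 101 in C26 vehicle (median 67.8), and the groups overlapped (log2 change -0.07, SE 0.16, adjusted p = 0.718). After quantile normalisation Hk2 was called lower (-0.34). Hk1, the hexokinase of most other tissues, stood at 2.51 ± 0.426 RPKM in controls (SD, n = 7) and was called higher with the tumour (0.23, adjusted p = 0.0354). That call was lost without any 1 of control libraries 1, 4 and 5 or C26 vehicle libraries 2, 3, 6 and 7, and under both other scalings. Gpi1, phosphoglucose isomerase, which turns glucose phosphate into fructose phosphate, was the clearest riser of the step. Its RPKM was 321 ± 23.5 in controls (SD, n = 7), 438 ± 59.1 in C26 vehicle (n = 7) and 520.0 ± 78.6 in C26 rolipram (n = 5), and it was higher than control by 0.44 (SE 0.10, adjusted p = 0.000731) and by 0.68 (SE 0.11, adjusted p = 3.54e-05). All rolipram libraries lay above all controls, whereas the lowest vehicle library fell within the control range. After quantile normalisation both changes were still called but smaller (0.22 and 0.32). Opposite-strand genes overlap 11.5% of the Gpi1 exons, and the strand setting of the counting was not given in the sources used here.

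At the phosphofructokinase step, the muscle form fell with the tumour. With rolipram it was not called different from control, though each rolipram library lay either above or below every control. Pfkm, the muscle phosphofructokinase that commits sugar to glycolysis (GRCm38 chromosome 15, 98092589 to 98132451), was 1280.1 to 1546 RPKM in controls (median 1466) and 550.1 to 1275 in C26 vehicle (median 906), and was 1588, 1702, 1820.1, 1900.2 and 1094 in C26 rolipram libraries 1 to 5. Every vehicle library was below every control, and 4 of the 5 rolipram libraries were above every control while the fifth was among the vehicle libraries. Pfkm changed by -0.69 with the tumour (SE 0.18, adjusted p = 0.00165) and 0.84 with rolipram against vehicle (SE 0.19, adjusted p = 0.007), and 0.14 for rolipram against control (adjusted p = 0.548). Gm26513, on the same strand, overlaps 10.2% of the Pfkm exons. The liver form Pfkl and the platelet form Pfkp stayed near 3.16 and 1.62 RPKM in controls, with no call in any comparison.

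The bifunctional enzymes of the Pfkfb family make and remove fructose bisphosphate of the signalling form, the strongest activator of phosphofructokinase, and their genes did not move together. Pfkfb1, whose transcripts include a muscle form, was 32.5 to 38.6 RPKM in controls and 15.6 to 26.1 in C26 vehicle, without overlap. In C26 rolipram it was 39.8, 40.5, 25.4, 27.6 and 22.02 in libraries 1 to 5, so that 2 libraries lay above all controls and 3 below all of them. The change was -0.77 with the tumour (SE 0.13, adjusted p = 2.22e-05) and 0.55 with rolipram against vehicle (SE 0.14, adjusted p = 0.0117), the latter not called with these 2 groups alone in the fit. Pfkfb4, a family member first known from testis, was higher with the tumour, 25.9 ± 7.65 against 16.1 ± 3.34 RPKM (SD, n = 7 each; log2 change 0.60, SE 0.20, adjusted p = 0.0109), a call that was lost after median-of-ratios scaling (0.47) and quantile normalisation (0.33). Pfkfb3, the inducible member with the highest kinase activity, ranged from 17.4 to 95.2 RPKM in controls, 47.2 to 184 in C26 vehicle and 20.9 to 110.4 in C26 rolipram, with wide overlap (0.51 with the tumour, SE 0.38, adjusted p = 0.234).

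Fbp2, the muscle fructose bisphosphatase, which runs the phosphofructokinase step backwards, had the largest rise with rolipram of the 34 genes. It was 32.4 to 66.7 RPKM in controls (median 54.4), 29.8 to 161 in C26 vehicle (median 94.3) and 233, 260.3, 161, 212 and 123 in C26 rolipram libraries 1 to 5. All rolipram libraries were above all controls, and the vehicle libraries spread from below the lowest control to within the rolipram range. It was higher by 1.34 than vehicle (SE 0.35, adjusted p = 0.0134) and by 1.91 than control (SE 0.35, adjusted p = 0.000109). The call against vehicle was lost with these 2 groups alone in the fit. C26 vehicle itself differed from control by 0.58 (SE 0.32, adjusted p = 0.113), which was called when C26 vehicle 3 (0.77) or C26 vehicle 4 (0.80) was left out.

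In lower glycolysis, from aldolase to pyruvate kinase, 7 of 9 genes fell with the tumour, where 23.8% of all tested genes did. The others, Aldoa and Pgam1, did not pass. With rolipram against vehicle 7 of 9 rose, where 9.78% of all tested genes did, and Pgam1 and Pgam2 did not pass. Against control, C26 rolipram had 4 lower genes (Tpi1, Pgam2, Eno1, Pkm), 2 higher (Aldoa, Gapdh) and 3 without a call (Pgk1, Pgam1, Eno3). Of all tested genes, 16.4% were lower and 38.5% higher in that comparison. The median change of the 9 genes was -1.10 with the tumour and 0.53 with rolipram against vehicle.

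Eno3, the muscle enolase and after aldolase the most abundant of these transcripts (chromosome 11, 70657202 to 70662513), had the largest fall of this stretch as deposited. It was 3716 to 4426 RPKM in controls (median 4041), 550.1 to 2203 in C26 vehicle (median 1247) and 2663, 3216, 3369.6, 3410.1 and 1512 in C26 rolipram libraries 1 to 5. Every library of both tumour groups was below every control, and 4 of the 5 rolipram libraries were above every vehicle library, the exception being C26 rolipram 5. Eno3 changed by -1.69 with the tumour (SE 0.26, adjusted p = 9.9e-06) and 1.13 with rolipram against vehicle (SE 0.28, adjusted p = 0.0119), the latter not called with these 2 groups alone in the fit. After quantile normalisation the fall of Eno3 was -1.08, smaller than those of Tpi1 (-1.48), Eno1 (-1.37) and Pkm (-1.10). The difference between rolipram and control was -0.57 (SE 0.28, adjusted p = 0.0968). It was called without C26 vehicle 3 and with these 2 groups alone in the fit, at the same size, and its sign depended on scaling, from -0.72 after median-of-ratios scaling to 0.22 after quantile normalisation. Eno1, the enolase of most tissues, was far lower at 20.9 ± 2.49 RPKM in controls and fell as well, to 9.24 ± 1.36 in C26 vehicle (SD, n = 7 each; -1.10, SE 0.12, adjusted p = 9.21e-08). It was 13.3 ± 2.92 in C26 rolipram (n = 5), higher than vehicle by 0.47 (SE 0.13, adjusted p = 0.0165), or by 0.41 without C26 rolipram 1, which was not called, nor was it with these 2 groups alone in the fit.

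Tpi1, triose phosphate isomerase, which lets both products of aldolase continue to pyruvate (chromosome 6, 124810586 to 124814296), was 1053 to 1329.8 RPKM in controls (median 1245), 237 to 649 in C26 vehicle (median 410.3) and 706, 836, 684, 790.3 and 562 in C26 rolipram libraries 1 to 5. The tumour groups lay wholly below the controls, and all rolipram libraries but the fifth lay above all vehicle libraries. Tpi1 changed by -1.51 with the tumour (SE 0.18, adjusted p = 5.48e-07), 0.75 with rolipram against vehicle (SE 0.20, adjusted p = 0.0155) and -0.76 for rolipram against control (SE 0.20, adjusted p = 0.00322). Pkm, pyruvate kinase, which makes the pyruvate and a molecule of ATP, was 997 to 1292 RPKM in controls, 363 to 632 in C26 vehicle and 619.8 to 740.4 in C26 rolipram. Both tumour groups were below every control and touched each other at a single pair of libraries, C26 vehicle 2 and C26 rolipram 5. It changed by -1.15 (SE 0.10, adjusted p = 8.56e-09) and, with rolipram against vehicle, by 0.45 (SE 0.11, adjusted p = 0.0111). The rolipram-to-vehicle calls of Tpi1 and Pkm were lost after quantile normalisation (0.59 and 0.26) and also with these 2 groups alone in the fit. Gm49759, on the same strand, overlaps 15.3% of the Pkm exons.

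Gapdh, the dehydrogenase that yields NADH and is often taken as a reference gene (chromosome 6, 125161715 to 125166467), changed in every comparison. It was 1542 to 2261 RPKM in controls (median 1858), 1037 to 1569 in C26 vehicle (median 1378) and 2552, 2612, 2268, 2185 and 2268 in C26 rolipram libraries 1 to 5. The vehicle libraries overlapped the low end of the controls, and the rolipram libraries lay above every vehicle library and overlapped the top of the controls. The log2 change was -0.45 with the tumour (SE 0.11, adjusted p = 0.000899), 0.82 with rolipram against vehicle (SE 0.12, adjusted p = 0.000281) and 0.37 for rolipram against control (SE 0.12, adjusted p = 0.011). The first call was lost after quantile normalisation (-0.15) and the last after median-of-ratios scaling (0.22), though it was 0.60 after quantile normalisation, while the rolipram-to-vehicle difference was called in every alternative, between 0.75 and 0.86.

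Aldoa, the muscle aldolase that splits fructose bisphosphate (chromosome 7, 126795234 to 126800751), was the most abundant of the 34 genes and took another course. It was 6270.1 to 7355 RPKM in controls (median 6943), 6292 to 8904 in C26 vehicle (median 7593) and 11672, 11794, 10744, 10216 and 8895 in C26 rolipram libraries 1 to 5. Control and vehicle libraries overlapped, while every rolipram library was above every control and all but the fifth were above every vehicle library. The change was 0.17 with the tumour (SE 0.09, adjusted p = 0.112), or 0.21 and called without C26 vehicle 3 and 0.99 and called after quantile normalisation. It was 0.48 with rolipram against vehicle (SE 0.10, adjusted p = 0.00393) and 0.64 against control (SE 0.10, adjusted p = 2.15e-05), or 1.46 against control after quantile normalisation. The annotation holds 2 genes with the symbol Aldoa, and the coordinates are those of a protein-coding entry with 12 merged exons. Aldoa alone accounted for 1.496% of the summed RPKM of a control library on average, for 1.84% with vehicle and for 2.45% with rolipram. The other 33 genes together made up 4.19% ± 0.248 (SD, n = 7), 2.83% ± 0.543 (n = 7) and 3.74% ± 0.475 (n = 5).

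Pgk1, the kinase that forms ATP after Gapdh, was 218 to 327 RPKM in controls, 129 to 202 in C26 vehicle and 197 to 262 in C26 rolipram. It was lower with the tumour without overlap (-0.61, SE 0.11, adjusted p = 8.61e-05) and higher with rolipram than with vehicle (0.53, SE 0.12, adjusted p = 0.00797). Pgam2, the muscle phosphoglycerate mutase (chromosome 11, 5801640 to 5803733), was 2051 to 2664 RPKM in controls, 528 to 1501 in C26 vehicle and 1211, 1651, 1639, 1798 and 969 in C26 rolipram libraries 1 to 5. Both tumour groups lay below every control, with changes of -1.26 (SE 0.20, adjusted p = 1.72e-05) and -0.73 (SE 0.22, adjusted p = 0.00914). The difference of 0.54 between them (SE 0.22, adjusted p = 0.0999) was called only without C26 vehicle 2 (0.64) or C26 rolipram 5 (0.67), among the libraries left out in turn. Pgam1, the mutase of other tissues, was 2.33 ± 0.364 RPKM in controls and was not called in any comparison. Reads of Gapdh, Aldoa, Tpi1, Pgk1, Pgam1, Eno1 and Ldha can be shared with their processed pseudogenes, and how the authors' counting treated such reads was not given in the sources used here.

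**Figure D2:**
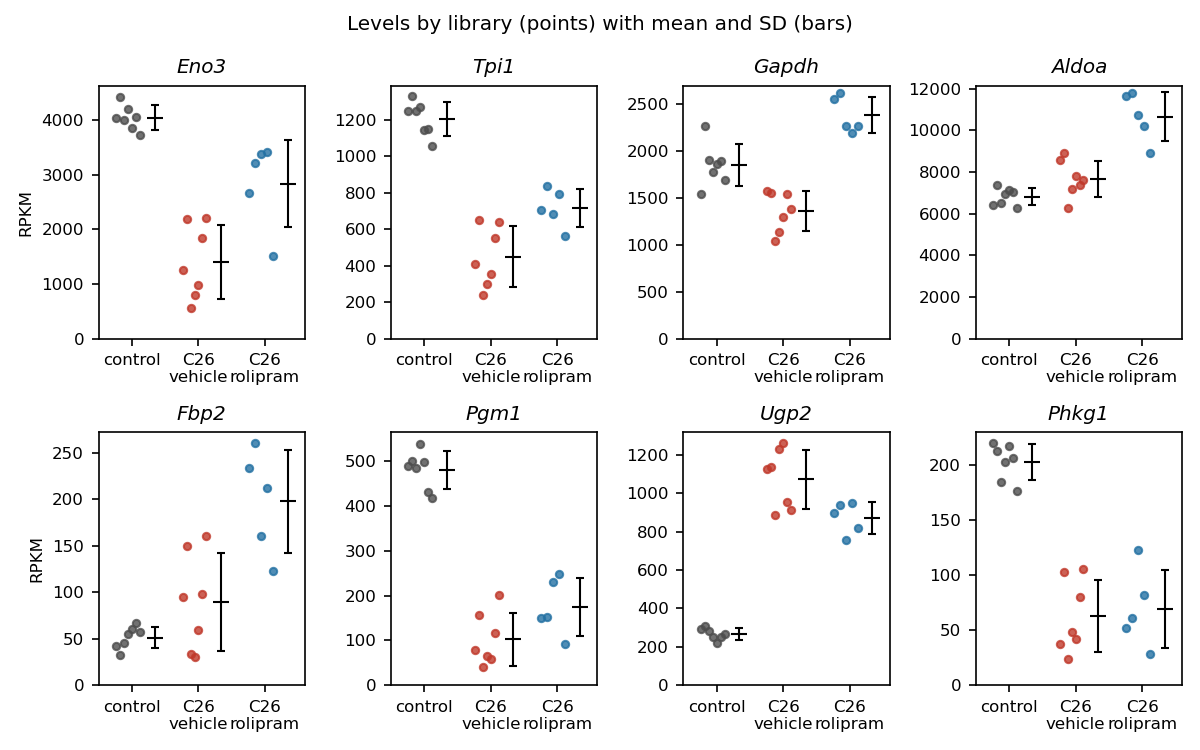
Points are libraries, and the bar beside each group is the mean with its SD (7 control, 7 C26 vehicle, 5 C26 rolipram); the vertical axes are RPKM and start at 0. Eno3, Tpi1, Pgm1 and Phkg1 fall with the tumour without overlap, Ugp2 rises without overlap, and Gapdh, Aldoa and Fbp2 have their highest means in C26 rolipram.

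The lactate dehydrogenases both fell with the tumour, and the heart-type gene stayed low with rolipram. Ldha, the form that favours making lactate, was 1103 to 1519 RPKM in controls (median 1338), 385 to 1332 in C26 vehicle (median 775) and 1075, 1140.4, 1204, 1171 and 752 in C26 rolipram libraries 1 to 5. The groups overlapped throughout, and the change was -0.74 with the tumour (SE 0.21, adjusted p = 0.00408) and 0.42 with rolipram against vehicle (SE 0.23, 95% interval -0.06 to 0.90, adjusted p = 0.214). Its promoter window with TGACGTCA is printed above. Ldhb, the form of heart and slow fibres that favours using lactate, was 157 to 259 RPKM in controls, 45.8 to 138 in C26 vehicle and 72.7, 48.2, 63.6, 62.1 and 58.8 in C26 rolipram libraries 1 to 5. Both tumour groups lay below every control and overlapped each other. The change was -1.27 with the tumour (SE 0.19, adjusted p = 7.17e-06) and -1.66 for rolipram against control (SE 0.21, adjusted p = 1.77e-06), and rolipram differed from vehicle by -0.39 (SE 0.21, adjusted p = 0.202).

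In glycogen synthesis, 5 of 6 genes were higher with the tumour, where 43.3% of all tested genes were. The remaining gene, Pgm1, was lower, where 23.8% of all tested genes were. No gene of the 6 passed between rolipram and vehicle, where 9.78% of all tested genes were higher and 7.32% lower. Against control, C26 rolipram had 4 higher and 1 lower, where 38.5% and 16.4% of all tested genes were. Ugp2, which makes UDP-glucose, the building block of glycogen (chromosome 11, 21321138 to 21371201), had the largest rise of the 34 genes. It was 219 to 309.7 RPKM in controls (median 268), 885 to 1264 in C26 vehicle (median 1124) and 894, 936, 755, 949 and 819 in C26 rolipram libraries 1 to 5. Both tumour groups were wholly above the controls, and they overlapped each other. The log2 change was 1.99 with the tumour (SE 0.10, adjusted p = 3.38e-12) and 1.70 for rolipram against control (SE 0.11, adjusted p = 2.82e-10). Rolipram differed from vehicle by -0.29 (SE 0.11, adjusted p = 0.0754), which was called lower without C26 vehicle 3 (-0.34) or C26 vehicle 7 (-0.33), and after quantile normalisation (-0.51).

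Gyg, glycogenin, the protein on which each glycogen particle starts (chromosome 3, 20122084 to 20155317), was 185 to 209 RPKM in controls, 327 to 450.1 in C26 vehicle and 331 to 426 in C26 rolipram. The controls were narrow and stood clear of both tumour groups, with a change of 1.02 (SE 0.09, adjusted p = 4.52e-09) and 0.94 (SE 0.10, adjusted p = 1.32e-07). Gys1, the muscle glycogen synthase, was 123 to 149 RPKM in controls, 167 to 249 in C26 vehicle and 173 to 298 in C26 rolipram, again without overlap with controls (0.68, SE 0.11, adjusted p = 2.91e-05, and 0.82, SE 0.12, adjusted p = 1.58e-05). Gbe1, the branching enzyme, rose from 15.7 ± 3.94 RPKM to 22.3 ± 4.07 (SD, n = 7 each; 0.50, SE 0.14, adjusted p = 0.00326) and was 27.3 ± 4.19 in C26 rolipram (n = 5; 0.78 against control, adjusted p = 0.000189). Its call with the tumour was lost after quantile normalisation (0.20). The same normalisation left the others called but smaller, at 0.44 with the tumour and 0.48 against control in C26 rolipram for Gys1, and in C26 rolipram at 0.61 for Gyg and 0.49 for Gbe1.

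Pgm1, the phosphoglucomutase that connects glycogen in either direction with glycolysis, had the largest fall of the 34 genes. The symbols Pgm1 and Pgm2 have been exchanged in mouse nomenclature, and here Pgm1 is the gene on chromosome 4 (99929414 to 99987294). It was 418 to 539.5 RPKM in controls (median 489.9), 39.2 to 200.4 in C26 vehicle (median 77.7) and 149.5, 151, 231, 248 and 91.7 in C26 rolipram libraries 1 to 5. Both tumour groups were wholly below the controls, and 2 rolipram libraries were above every vehicle library. The log2 change was -2.42 with the tumour (SE 0.28, adjusted p = 3.24e-07) and -1.54 for rolipram against control (SE 0.31, adjusted p = 0.0003). Rolipram differed from vehicle by 0.88 (SE 0.31, adjusted p = 0.0534), which was called when C26 vehicle 2 (1.02), C26 vehicle 7 (1.08) or C26 rolipram 5 (1.09) was left out. Itgb3bp, on the opposite strand, overlaps 13.6% of the Pgm1 exons. Pgm2, the relative on chromosome 5, was 1.14 ± 0.311 RPKM in controls and 1.55 ± 0.416 in C26 vehicle (SD, n = 7 each), called higher by 0.25 (adjusted p = 0.0458). This call was lost without any 1 of 11 libraries (controls 3 to 6, C26 vehicle 2, 3, 5 and 7, C26 rolipram 1, 3 and 4), and after median-of-ratios scaling (0.17). It was also lost with control and C26 vehicle alone in the fit.

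In glycogen breakdown, 4 of 5 genes were lower in both tumour groups than in control, and no gene of the 5 passed between rolipram and vehicle. Of all tested genes, 23.8% were lower than control in C26 vehicle and 16.4% in C26 rolipram. Between rolipram and vehicle, 9.78% of all tested genes were higher and 7.32% lower. Phkg1, the catalytic subunit of muscle phosphorylase kinase, the enzyme that receives the protein kinase A signal (chromosome 5, 129863421 to 129898549), was 176 to 219.7 RPKM in controls (median 206), 24.04 to 105 in C26 vehicle (median 48.4) and 51.6, 60.6, 122, 82.1 and 28.6 in C26 rolipram libraries 1 to 5. Both tumour groups were wholly below the controls and spread over about the same range. The change was -1.85 (SE 0.30, adjusted p = 1.77e-05) and -1.69 (SE 0.33, adjusted p = 0.000202), and rolipram differed from vehicle by 0.16 with a 95% interval of -0.52 to 0.84. Sumf2, on the opposite strand, overlaps 9.68% of the Phkg1 exons.

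Phka1, the large regulatory subunit of the muscle kinase (chromosome X, 102513975 to 102644246), was 116 to 159 RPKM in controls, 21.7 to 79.9 in C26 vehicle and 24.5 to 96.1 in C26 rolipram. It too lay wholly below control in both tumour groups, by -1.74 (SE 0.28, adjusted p = 1.51e-05) and -1.33 (SE 0.30, adjusted p = 0.000953). Phkb, the other regulatory subunit, fell less, from 121 ± 14.2 RPKM to 82.7 ± 18.5 in C26 vehicle (SD, n = 7 each; -0.56, SE 0.15, adjusted p = 0.00213) and 70.4 ± 17.5 in C26 rolipram (n = 5; -0.80, SE 0.16, adjusted p = 0.000305). Its vehicle libraries overlapped the controls and its rolipram libraries did not, and after quantile normalisation its change with the tumour was -0.86.

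Pygm, muscle glycogen phosphorylase, the enzyme missing in McArdle disease (chromosome 19, 6384399 to 6398459), was 2661 to 3423 RPKM in controls (median 2840.0), 1235 to 2525 in C26 vehicle (median 1841) and 1965, 2031, 2621, 2147 and 1218 in C26 rolipram libraries 1 to 5. Both tumour groups lay below every control. The change was -0.64 with the tumour (SE 0.15, adjusted p = 0.000935) and -0.60 for rolipram against control (SE 0.17, adjusted p = 0.00483). With the tumour it was 0.01 and not called after quantile normalisation, so whether Pygm fell with the tumour depended on scaling. The call against control in C26 rolipram was also lost after quantile normalisation (-0.21). Pygb, the brain form, was 2.55 ± 0.974 RPKM in controls and was not called in any comparison as deposited, but was called lower in C26 rolipram than in control after median-of-ratios scaling (-0.38) and quantile normalisation (-0.33).

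Of the subunits that bring protein phosphatase 1 to glycogen, where it activates the synthase and inactivates phosphorylase, Ppp1r3a moved with rolipram alone and Ppp1r3c varied widely. Ppp1r3a, the muscle subunit, was 44.8 to 62.0 RPKM in controls, 38.3 to 59.7 in C26 vehicle and 103, 63.6, 65.7, 59.5 and 81.7 in C26 rolipram libraries 1 to 5. Controls and vehicle libraries covered the same range, and 1 rolipram library lay within each of them. It was higher with rolipram than with vehicle by 0.53 (SE 0.14, adjusted p = 0.0125) and than control by 0.50 (SE 0.14, adjusted p = 0.00375), the former lost with these 2 groups alone in the fit and the latter after quantile normalisation (0.20). The tumour itself gave -0.03 (SE 0.12, 95% interval -0.28 to 0.23). Ppp1r3c, a subunit also found in liver and adipose tissue, was 65.2 to 251 RPKM in controls, 62.0 to 458 in C26 vehicle and 58.6, 71.2, 291, 271 and 645 in C26 rolipram libraries 1 to 5. The groups overlapped fully, and the call of 1.14 with the tumour (SE 0.49, adjusted p = 0.0466) was lost without any 1 of 12 libraries (controls 1, 3, 4, 6 and 7, C26 vehicle 1, 2 and 4 to 7, C26 rolipram 4), and under both other scalings. It was also lost with 0.1 in place of 1 RPKM added before taking log2.

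**Figure D3:**
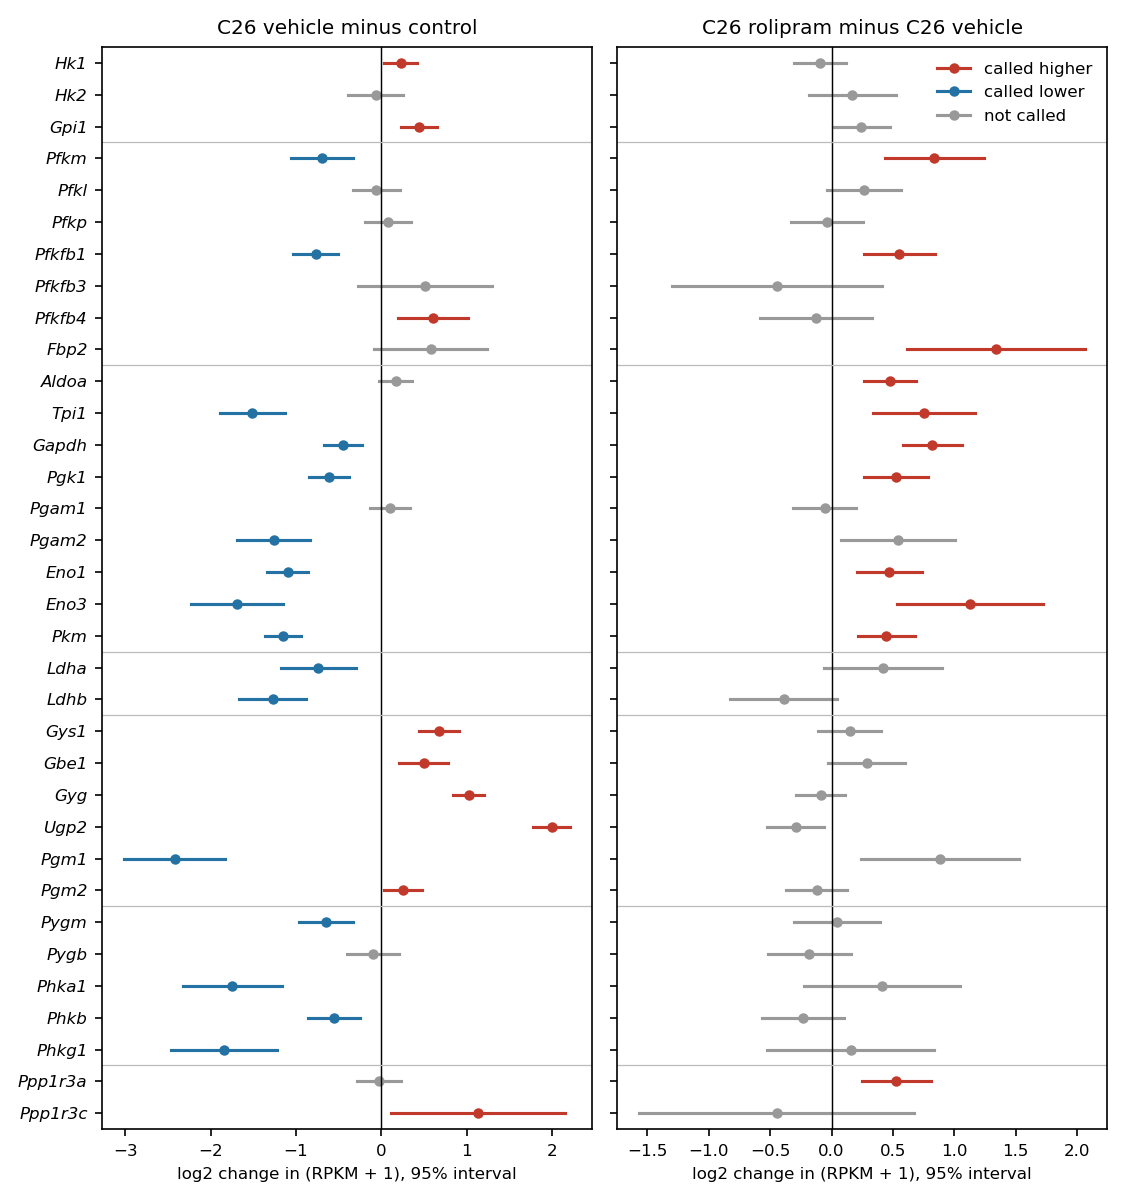
Points are log2 changes in (RPKM + 1) of each gene with 95% intervals from limma, C26 vehicle minus control on the left and C26 rolipram minus C26 vehicle on the right. On the left 16 genes are called lower and 9 higher, and on the right 11 are called higher.

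A ratio of the 2 forms of a step within a library does not change when all genes of that library are multiplied by the same factor, as in median-of-ratios scaling, but it can change under quantile normalisation. The ratios were taken from the values as deposited. For 8 such pairs the log2 ratio of RPKM was compared with a two-sided exact permutation test, adjusted over the 8. In every group the muscle form far outweighed its partner: in controls Pgam1 was 0.0998% of both mutases, Pygb 0.0887% of both phosphorylases, Pfkp 0.114% and Pfkl 0.219% of the pair with Pfkm, and Eno1 0.513% of both enolases. Ldhb was 13.1% of both lactate dehydrogenases. The exception was the Pfkfb pair, where Pfkfb3 was 60.1% of the sum with Pfkfb1.

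With the tumour, 4 of 8 ratios changed, each upward. Pgam1/Pgam2 was -10.37 to -9.56 in controls and -9.33 to -7.95 in C26 vehicle, without overlap, a difference of 1.41 (exact permutation p = 0.000583, the smallest that 3432 assignments can give, adjusted p = 0.00466). The numerator of this ratio, Pgam1, did not pass on its own, and its partner Pgam2 fell. Pfkfb3/Pfkfb1 rose by 1.32 (adjusted exact p = 0.00466), Pfkp/Pfkm by 0.82 (adjusted exact p = 0.00777) and Pfkl/Pfkm by 0.60 (adjusted exact p = 0.00932), each with overlapping libraries. Here too the numerators Pfkfb3, Pfkp and Pfkl did not pass on their own, and the partners Pfkfb1 and Pfkm fell. Pfkp/Pfkm and Pfkl/Pfkm share Pfkm and are not separate shifts. Ldhb/Ldha differed by -0.55 and Eno1/Eno3 by 0.52, neither passing (adjusted exact p = 0.0559 for both).

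With rolipram against vehicle, 3 ratios passed: Pfkfb3/Pfkfb1 fell by 1.03, Pfkp/Pfkm fell by 0.89 and Ldhb/Ldha fell by 0.82, each with an adjusted exact permutation p = 0.0303. Of the genes in these 3 ratios, only the denominators Pfkfb1 and Pfkm were called on their own, both higher. Between 0 and 6 of the 8 ratios passed when 1 library was left out, which also leaves the exact test fewer assignments. Without C26 vehicle 6, C26 rolipram 2 or C26 rolipram 4 none of the 8 passed, and without C26 rolipram 5 it was 6. Without C26 vehicle 6 or C26 rolipram 2, Pfkp/Pfkm still differed by -0.91 and -0.95, and Pfkfb3/Pfkfb1 by -1.03 and -1.04. Ldhb/Ldha then differed by less, -0.73 and -0.70. Without C26 rolipram 4 all 3 differences were smaller, at -0.78, -0.70 and -0.79 in the same order. The count of calls alone therefore does not show how far the differences rest on single libraries. Against control, Ldhb/Ldha was lower in C26 rolipram by 1.36, and the -3.09 to -2.15 of controls did not overlap the -4.57 to -3.68 of rolipram (adjusted exact p = 0.0101). Its share of both lactate dehydrogenases was 13.1% ± 3.39 in controls (SD, n = 7), 9.51% ± 2.95 in C26 vehicle (n = 7) and 5.54% ± 1.25 in C26 rolipram (n = 5). Pgam1/Pgam2 was higher than control by 0.78 (adjusted exact p = 0.0253), which was lost in 9 of the 12 fits that left out 1 library: controls 1 to 6 and C26 rolipram 1, 2 and 5.

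**Figure D4:**
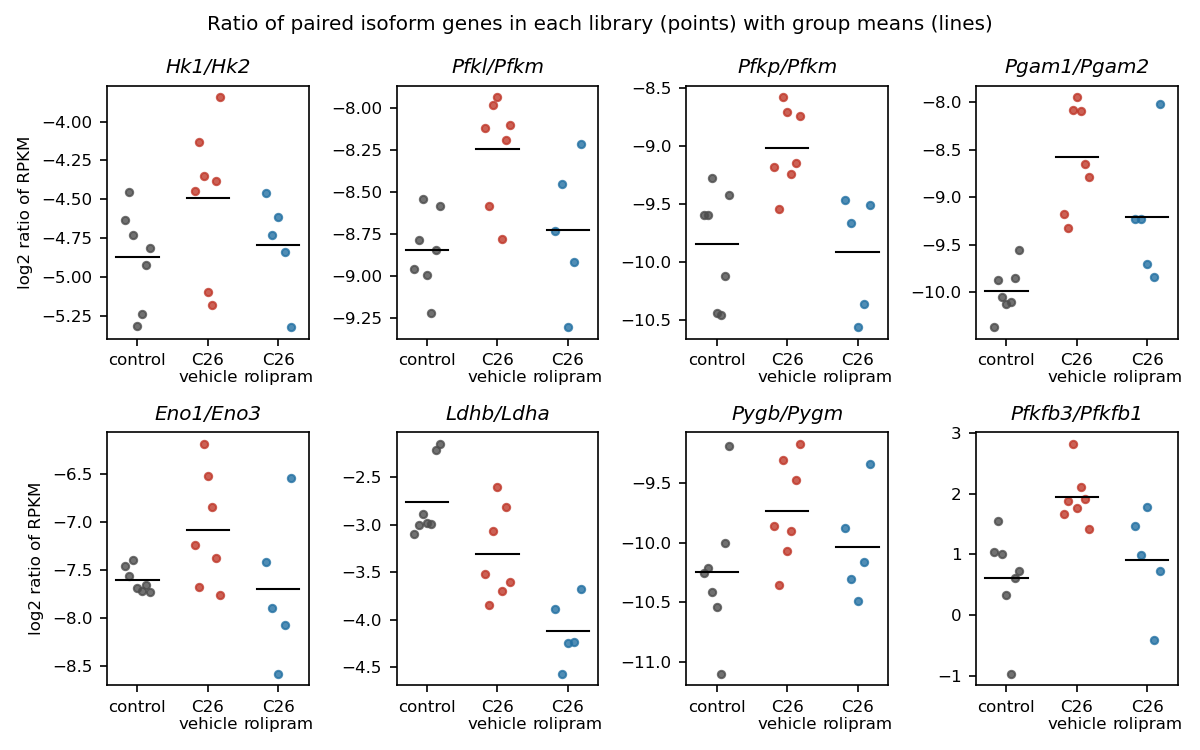
Each point is the log2 ratio of the RPKM of paired genes in a library, and lines are group means; the vertical axes differ between panels and do not start at 0. Pgam1/Pgam2 of C26 vehicle lies above all controls, and Ldhb/Ldha of C26 rolipram lies below all controls.

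Libraries within a tumour group differed in how far the falling genes had fallen. Over the 16 genes lower with the tumour, the mean log2 difference from the control mean was -1.82 in C26 vehicle 3, the lowest, and -0.66 in C26 vehicle 2, the highest of the 7, and it ran from -1.17 in C26 rolipram 5 to -0.49 in C26 rolipram 3. These are descriptions of libraries over genes chosen by that comparison. C26 vehicle 3 had the lowest value of its group in 14 of the 16 genes, and C26 rolipram 5 in 13. The 16 calls themselves held without any single library. The 9 genes higher with the tumour did not line up in this way: their mean was 0.45 in C26 vehicle 3, ran from 0.71 in C26 vehicle 1 to 0.94 in C26 vehicle 4 among the other vehicle libraries, and was highest of the rolipram libraries in C26 rolipram 5, at 0.97. C26 vehicle 3 had the lowest value of its group in 3 of the 9 genes, and C26 rolipram 5 in 1. The means include Ppp1r3c, which was lowest of its group in C26 vehicle 3 (62.0 RPKM) and highest of its group in C26 rolipram 5 (645 RPKM). How far the means rest on Ppp1r3c was not tested.

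Other genes of the pathway, taken from lists by function, moved in both directions, as all tested genes did. With the tumour 43.3% of all tested genes were called higher and 23.8% lower. With rolipram against vehicle the shares were 9.78% and 7.32%. Whether the counts of these lists differ from such shares was not tested. Of 9 tested further glycolysis genes, 3 were higher and 4 lower with the tumour. Adpgk, a kinase that phosphorylates glucose with ADP, rose by 0.59 (SE 0.09, adjusted p = 8.03e-06), without overlap with controls. Bpgm, which makes the bisphosphoglycerate that tunes haemoglobin, fell from 52.3 ± 4.86 to 11.4 ± 7.01 RPKM (SD, n = 7 each; -2.30, SE 0.26, adjusted p = 2.31e-07), while erythroid markers rose. Pgp, a phosphatase that clears side products of glycolysis, fell by 0.59 with the tumour and was the 1 gene of this list called with rolipram, higher than vehicle by 0.90 (adjusted p = 0.000165) with no overlap.

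Of 16 tested further glycogen genes, 7 were higher and 7 lower with the tumour. Gaa, the acid glucosidase that digests glycogen in lysosomes, rose from 47.2 ± 4.58 to 247 ± 74.1 RPKM (SD, n = 7 each; 2.31, SE 0.17, adjusted p = 5.75e-10) and stood at 233 ± 48.8 in C26 rolipram (n = 5). Gsk3a, a kinase that inhibits glycogen synthase, rose by 0.58. Calm2 and Calm3, which encode calmodulin, the calcium-sensing subunit of phosphorylase kinase, fell by 1.86 and by 2.06, without overlap with controls. With rolipram against vehicle 3 of the 16 were higher.

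Of 14 genes of the pentose phosphate pathway and other side routes, 6 were higher and 7 lower with the tumour. Pgd, a dehydrogenase of the pentose phosphate pathway, rose by 1.10 (SE 0.10, adjusted p = 1.05e-08) and was lower with rolipram than with vehicle by -0.43 (adjusted p = 0.0111), without overlap in either comparison. Sord, sorbitol dehydrogenase, rose by 0.45. Slc37a4, which carries glucose phosphate into the endoplasmic reticulum, fell from 62.5 ± 7.72 to 5.31 ± 1.496 RPKM (SD, n = 7 each; -3.36, SE 0.13, adjusted p = 6.62e-14), a larger change than that of any of the 34 genes, and was 8.15 ± 1.18 in C26 rolipram (n = 5), higher than vehicle by 0.56 (adjusted p = 0.0135). Gpd2, the mitochondrial glycerol phosphate dehydrogenase that passes electrons from glycolysis to the respiratory chain, fell by 1.81 (adjusted p = 2.42e-09). With rolipram against vehicle 4 of the 14 were higher and 2 lower.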

How the data were processed

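PolyA RNA of gastrocnemius was sequenced from 7 control, 7 C26 vehicle and 5 C26 rolipram samples with a stranded kit, per the labels' protocols. STAR 2.5.3a, featureCounts 1.6.4 and mm10 are named in the submitters' processing notes. The deposited table holds RPKM computed by the authors. The sources used here do not give its annotation, strand setting or gene filter.

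The 11141 of 13067 genes that reached 1 RPKM in 5 or more libraries were tested two-sided on log2(RPKM + 1) with limma 3.58.1 in R 4.3.3, with trend and robust moderation, all 19 libraries in the fit and Benjamini-Hochberg adjustment over all tested genes. A fold change on this scale understates the change of low genes. Ratios were tested by exact permutation. The script was tested on simulated data. Library sizes were estimated from 40 genes that share a floor value. With 234 of 234 low values whole within 0.05 read, this gives counting error only, since molecules were not identified. No pair of libraries was identical (highest correlation 0.9949 over 171 pairs). Annotation came from GENCODE M21 (13006 of 13067 symbols matched) and promoters from RefSeq. All 34 genes are described. For other pathway lists, the 2 genes with the smallest p in each direction with the tumour are named, except 1 that is not reported here. The members and lists were chosen with earlier results of these data known. Alternatives were another pseudocount, no filter, 2 scalings, plain moderation, 2 groups only, a replicate block and leaving out each library.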

Additional observations from a re-analysis of the deposited data

Results flagged for a closer look

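In 5 of 102 gene-and-group combinations a library stood apart from the rest of its group by the gap to its nearest neighbour relative to the range of the group, where chance gives about 1 in 20. Pfkfb3 was 17.4 RPKM in control 5 against 46.2 to 95.2 in the other controls (gap 0.571 of the range) and 184 RPKM in C26 vehicle 3 against 47.2 to 85.1 in the others (0.569). Ppp1r3c was 62.0 RPKM in C26 vehicle 3 against 216 to 458 (0.622). In C26 rolipram 5, Pgk1 was 197 RPKM against 244 to 262 (0.742) and Ldha was 752 RPKM against 1075 to 1204 (0.76). None of the 24 ratio-and-group combinations stood apart in this way.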

How the results depend on the processing

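The 16 genes lower with the tumour were called lower under every alternative except Gapdh and Pygm after quantile normalisation, where Gapdh changed by -0.15 and Pygm turned to 0.00873 (adjusted p = 0.952, with 0.000189 to 0.952 over all alternatives). The cause was not tested. The count of genes higher with the tumour moved from 9 to 5 after median-of-ratios scaling, which takes out most of the shift of all genes. With rolipram against vehicle, 767 genes and 4 of the 34 were called with only these 2 groups in the fit, against 1906 and 11, and 1 of the 34, Ugp2, was called lower after quantile normalisation. Leaving out single libraries gave 7148 to 7531 called genes with the tumour, 1114 (without C26 rolipram 2) to 2375 with rolipram against vehicle, where 1188 were called without C26 rolipram 1, and 5481 to 6399 for rolipram against control. Of the 34 genes it gave 16 to 16 lower and 6 to 9 higher with the tumour, 10 to 13 higher and 0 to 1 lower with rolipram against vehicle, and 9 to 10 higher and 10 to 11 lower for rolipram against control. Ratios called were 4 to 6, 0 to 6 and 1 to 2 in the same order. With 1 RPKM added, 7 ratios were called with the tumour, and with medians 0 were called with rolipram against vehicle and 0 against control. Same-numbered libraries correlated above 0.1 across genes in 4 of 7, 1 of 5 and 0 of 5 pairs, and the first 7 values ran from -0.04 to 0.30. This cannot decide whether the numbers mark pairs, since no such values are given for differently numbered libraries. The main fit did not take the numbers as pairs. With the replicate block 7530 genes were called with the tumour, and Pfkl (0.38) and Pgm1 (1.01) were called in rolipram against vehicle.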
